A study of Homo sapiens with 12 samples.

Results

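DNA replication and S-phase genes were followed in A549 and PC9 cells that carried a HOXC6 vector or the empty vector. The set was a list of 51 genes, chosen by name for origin licensing, the replicative helicase, DNA polymerases, nucleotide supply and E2F control of S-phase entry. It was chosen with earlier results of these data known, so its shares of calls describe this list only. All 51 were found among the 12584 genes of the count table, and all 51 passed the filter on low counts in every comparison. The question put to the RNA was which genes change when HOXC6 is forced on in lung cancer cells. Both lines were established from human lung adenocarcinomas, and HOXC6 is a homeobox transcription factor. The A549-HOXC6 and PC9-HOXC6 cells were stably infected with the lentiviral vector pCDH-HOXC6, and the A549-NEO and PC9-NEO controls with the empty vector pCDH-NEO. All 4 groups thus carried a vector and were selected with neomycin. Each group had 3 libraries of polyadenylated RNA, 12 in all. A549 was kept in RPMI and PC9 in DMEM, so line and medium cannot be told apart. The sources do not say whether each infected line was a pool of cells or a clone.

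Replication begins when the origin recognition complex, CDC6 and CDT1 load the MCM2 to MCM7 helicase onto DNA before S phase. The kinase pair CDC7 and DBF4, together with cyclin-dependent kinases, then recruits CDC45 and the GINS complex to the helicase, and DNA polymerases alpha, delta and epsilon copy the strands behind it. Many genes of this machinery are transcribed by E2F factors as cells pass from G1 into S phase, so their summed mRNA is widely used as a readout of proliferation in tumour cells. In bulk RNA, a larger share of cells in S phase and more RNA per cell cannot be told apart. The authors measured growth apart from the RNA, by live-cell imaging and CFSE, and reported faster proliferation with HOXC6 in both lines. How the levels of these genes relate to that growth was not tested.

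Read depth was modest. The totals ran from 1212053 counts in A549-HOXC6 replicate 2 to 3286577 in PC9-HOXC6 replicate 3, and the floor of 3 counts was 0.913 to 2.56 CPM, the count scaled to its library's total. Replicates differed by more than counting noise (chi-square per degree of freedom 1.58 to 4.27), and the largest value was that between A549-HOXC6 replicates 1 and 3. HOXC6 itself was not analysed here, so the vector's effect on its own gene gives no check of the labels. The epithelial markers found (3 of 5: EPCAM, KRT18 and CDH1) summed to 1322 to 2208 CPM in the A549 libraries and 6124 to 6682 CPM in the PC9 libraries. EPCAM was low in A549, with group means of 5.75 and 5.30 CPM. Of the markers of other cells, 2 of 5 immune genes were found and summed to 6.47 to 24.0 CPM, most of it CD68, while PTPRC was at most 0.712 CPM in any group mean. The 2 of 4 endothelial genes found, KDR and VWF, summed to 0 to 5.34 CPM, and the 5 fibroblast genes summed to 19.5 to 77.5 CPM, nearly all of it COL1A1. Some of these markers moved with HOXC6. In A549 the group mean of KRT18 was 1168 CPM without and 1808 CPM with HOXC6, that of CD68 was 9.13 and 18.4 CPM, and that of CDH1 was 183 and 139 CPM (adjusted p = 8.93e-07, 0.00443 and 0.00305 by edgeR). In PC9 CDH1 went from 382 to 472 CPM and EPCAM from 196 to 157 CPM (adjusted p = 0.000691 and 0.00438 by edgeR). The part of these markers in the results was not tested. Leaving out A549-HOXC6 replicate 3 gave 20 higher and 6 lower replication genes in A549, against 20 and 5 with it. Among all genes tested the shares were 17% and 18.5% without that library and 18.9% and 20.7% with it. The labels call the replicates independent without saying that they were separate cultures, so the p-values measure the spread between these libraries.

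In A549 cells, more of the replication genes rose with HOXC6 than fell. Of the 51 genes, 20 rose (39.2%) and 5 fell (9.8%) at an adjusted p under 0.05, against 18.9% higher and 20.7% lower among all 8771 genes tested. Those that rose included all 6 MCM helicase subunits, the GINS subunits GINS1, GINS2 and GINS4, E2F1, E2F2 and thymidine kinase TK1. In PC9 cells the balance was the opposite, with 2 genes higher (3.92%) and 15 lower (29.4%), against 13.3% and 14.2% of 8419 genes. Scaled by library size only, 0 and 18 of the 51 genes were called higher and lower in PC9, against 752 and 1595 of 8419 genes (8.93% and 18.9%). The median log2 fold change of the 51 genes was 0.22 in A549 and -0.22 in PC9, while that of all genes was -0.00047 and -0.0046. All tests are edgeR's quasi-likelihood test with Benjamini-Hochberg adjustment over all genes tested, and log2 fold changes are given ± 1 standard error. That error was derived from the test, as the absolute log2 fold change over the square root of its F statistic.

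**Figure D1:**
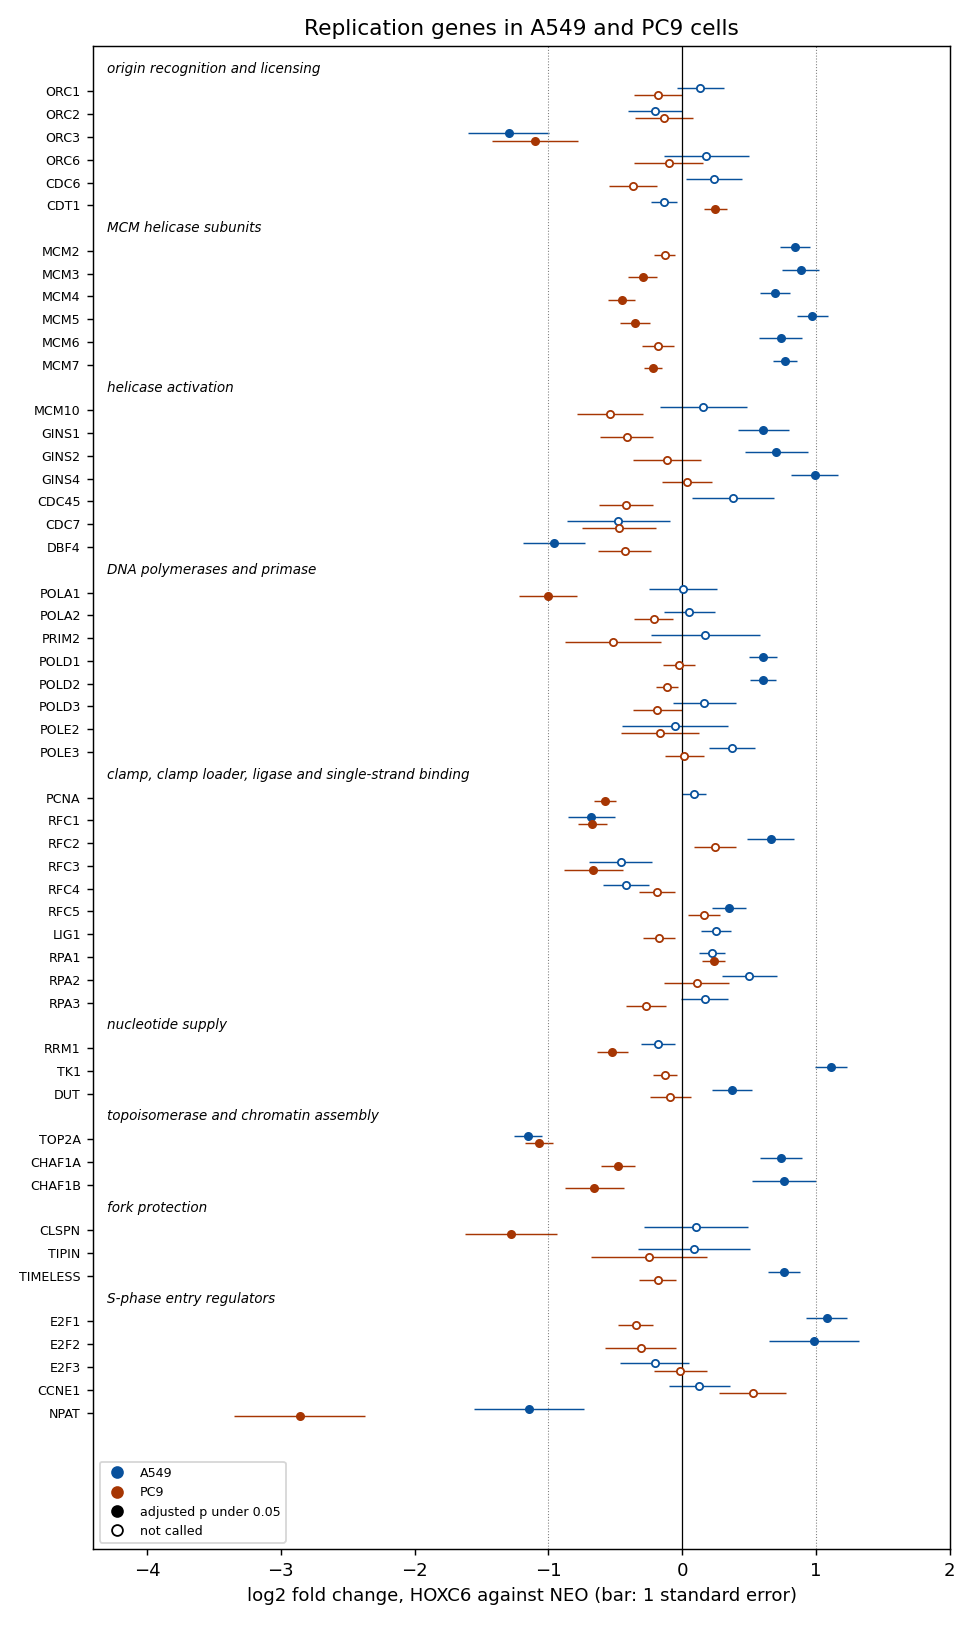
Log2 fold change (HOXC6 against NEO, x axis, bar 1 standard error) of the 51 replication genes, grouped by role, in A549 (blue) and PC9 (brown); filled points have an adjusted p under 0.05 and dotted lines mark a log2 fold change of 1 in either direction. The MCM subunits sit to the right of 0 in A549 and to the left in PC9, while ORC3, RFC1, TOP2A and NPAT sit to the left in both.

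Few of the changes were large. With a log2 fold change beyond 1 as a further criterion, E2F1 and TK1 were higher in A549-HOXC6 (2 of 51, 3.92%, against 1.7% of all genes) and TOP2A, ORC3 and NPAT were lower (3 of 51, 5.88%, against 5.51%). By the same criterion no gene of the set was higher in PC9-HOXC6 by edgeR or by DESeq2 (against 0.962% of all genes), with 0 also at an unadjusted p under 0.05. Lower there were CLSPN, TOP2A, ORC3 and NPAT (7.84%, against 3.56%). Of these, NPAT had 3, 1 and 4 counts in PC9-HOXC6 and CLSPN had 9, 9 and 17. Taken by call in both lines, 6 of the 51 genes were higher in A549 and lower in PC9, against 92 (1.16%) of the 7954 genes tested in both. DESeq2 gave 3 such genes (MCM4, MCM7 and CHAF1A). Lower in both lines were 4 of 51 (7.84%), near the share of all genes, 662 of 7954 (8.32%). DESeq2 gave 3 such genes and left out NPAT. Higher in A549 without a call in PC9 were 14 of 51, against 1168 of 7954 (14.7%). Lower in PC9 without a call in A549 were 5 of 51, against 387 of 7954 (4.87%). CDT1 and RPA1 (2 of 51) were higher in PC9 without a call in A549, against 654 of 7954 (8.22%). DBF4 (1 of 51) was lower in A549 without a call in PC9, against 894 of 7954 (11.2%). Called in neither line were 19 of 51, against 3685 of 7954 (46.3%). The 3 HOXC6 libraries lay wholly above the 3 NEO libraries for 25 of 51 genes in A549 and wholly below for 5 of 51. Over all genes this held for 2352 and 2071 of 8771 (26.8% and 23.6%). In PC9 the HOXC6 libraries lay wholly above for 4 of 51 and wholly below for 23 of 51, against 1642 and 1715 of 8419 genes (19.5% and 20.4%).

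Origin recognition and licensing genes changed little as a group, apart from ORC3. ORC3, a subunit of the origin recognition complex that marks replication origins (GRCh37 chr6:88299785-88377171, plus strand), measured 19.7, 13.2 and 16.9 CPM in A549-NEO and 6.18, 9.40 and 6.41 CPM in A549-HOXC6. In PC9 it measured 10.8, 14.6 and 13.1 CPM in PC9-NEO and 7.22, 5.15 and 5.48 CPM in PC9-HOXC6. Its HOXC6 libraries lay below the NEO libraries in both lines with no overlap. ORC3 had a log2 fold change of -1.30 ± 0.30, adjusted p = 0.00117 in A549 and -1.10 ± 0.32, adjusted p = 0.00982 in PC9. The PC9 call was lost without PC9-HOXC6 replicate 3 (adjusted p = 0.066 by edgeR). CDT1, which loads the helicase and is destroyed once S phase starts, measured 344, 379 and 396 CPM in A549-NEO and 329.9, 299 and 417 CPM in A549-HOXC6, with overlapping groups. In PC9 it measured 149.9, 162 and 139.7 CPM in PC9-NEO and 167, 186 and 183 CPM in PC9-HOXC6, and there every HOXC6 library was above every NEO library (log2 fold change 0.25 ± 0.09, adjusted p = 0.0334), though DESeq2 called no gene of the set higher in PC9. The CDT1 call was also lost with scaling by library size only, with a correction for the GC content and length of transcripts (the GC and length correction, described with base composition), with 12 libraries in one model and without PC9-NEO replicate 1 or 3 or PC9-HOXC6 replicate 2 or 3. CDC6, the loader's ATPase, had log2 fold changes of 0.24 ± 0.21, adjusted p = 0.378 in A549 and -0.36 ± 0.18, adjusted p = 0.135 in PC9. ORC1, ORC2 and ORC6 were called in neither line, with log2 fold changes between -0.20 and 0.18.

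The MCM2 to MCM7 subunits, which together form the ring-shaped core of the replicative helicase, moved together in A549. All 6 rose in A549-HOXC6, by 0.70 to 0.97 on the log2 scale, and for each of them the HOXC6 libraries lay above the NEO libraries. In PC9-HOXC6 all 6 estimates were below 0, from -0.45 to -0.13, and 4 of them (MCM3, MCM4, MCM5 and MCM7) passed the test as lower. The PC9 calls of the MCM genes were fragile. That of MCM3 was lost without any 1 of the 6 PC9 libraries (adjusted p 0.0527 to 0.128 by edgeR), and those of MCM5 and MCM7 were lost without PC9-NEO replicate 3, PC9-HOXC6 replicate 1 or PC9-HOXC6 replicate 2 (adjusted p up to 0.137 and 0.0814). DESeq2 did not call MCM3 or MCM5 in PC9 (adjusted p = 0.133 and 0.0624). The fall of MCM4 in PC9 was called in each of these fits.

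MCM2 measured 85.9, 88.6 and 89.4 CPM in A549-NEO and 170.0, 137 and 176 CPM in A549-HOXC6. In PC9 the MCM2 level was 232, 216 and 233 CPM in PC9-NEO and 203, 205 and 214 CPM in PC9-HOXC6. Every A549-HOXC6 library was above every A549-NEO library, and every PC9-HOXC6 library was below every PC9-NEO library by a small margin. The MCM2 log2 fold change was 0.84 ± 0.11, adjusted p = 9.25e-07 in A549 and -0.13 ± 0.08, adjusted p = 0.23 in PC9. MCM3 measured 61.0, 47.3 and 46.7 CPM in A549-NEO and 89.7, 94.0 and 114 CPM in A549-HOXC6. In the PC9 line MCM3 was at 96.0, 96.5 and 95.7 CPM in PC9-NEO and 77.5, 71.4 and 82.8 CPM in PC9-HOXC6. The groups were apart in both lines, in opposite directions. For MCM3 the log2 fold change was 0.89 ± 0.14, adjusted p = 9.86e-06 in A549 and -0.30 ± 0.11, adjusted p = 0.0402 in PC9. MCM4 measured 81.4, 75 and 75.7 CPM in A549-NEO and 124, 132 and 134 CPM in A549-HOXC6. PC9 values of MCM4 were 116, 130.2 and 119 CPM in PC9-NEO and 92.9, 87.6 and 86.8 CPM in PC9-HOXC6. Again the groups did not overlap in either line and moved in opposite directions. Its log2 fold change was 0.70 ± 0.11, adjusted p = 1.52e-05 in A549 and -0.45 ± 0.10, adjusted p = 0.000951 in PC9.

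MCM5 had the largest rise of the 6 in A549, from 72.7, 75.4 and 65.9 CPM in A549-NEO to 142, 128 and 161 CPM in A549-HOXC6. In PC9 its level was 102, 99.5 and 121 CPM in PC9-NEO and 79.9, 77.3 and 92.6 CPM in PC9-HOXC6. Both lines were without overlap between groups. The MCM5 log2 fold change was 0.97 ± 0.11, adjusted p = 1.75e-07 in A549 and -0.35 ± 0.11, adjusted p = 0.0165 in PC9. MCM6 measured 35.3, 29.7 and 34.9 CPM in A549-NEO and 50.9, 64.9 and 59.3 CPM in A549-HOXC6. The PC9 libraries gave 78.2, 90.5 and 95.2 CPM in PC9-NEO and 70.3, 90.6 and 75.8 CPM in PC9-HOXC6 for MCM6. The A549 groups were apart, while PC9-HOXC6 replicate 2 lay among the PC9-NEO libraries. For MCM6 the log2 fold change was 0.74 ± 0.16, adjusted p = 0.000521 in A549 and -0.18 ± 0.12, adjusted p = 0.267 in PC9. MCM7 was the most abundant of the 6 by CPM, at 278, 255 and 266 CPM in A549-NEO and 458, 413 and 529 CPM in A549-HOXC6. The corresponding PC9 levels of MCM7 were 409.9, 386 and 426 CPM in PC9-NEO and 345, 339 and 363 CPM in PC9-HOXC6. Its groups did not overlap in either line. The MCM7 log2 fold change was 0.77 ± 0.09, adjusted p = 1.44e-07 in A549 and -0.22 ± 0.07, adjusted p = 0.0163 in PC9. MCM7 shares 392 bases of exon with AP4M1 on the opposite strand and MCM2 shares 1113 with an unnamed transcript, and the strand setting of the counting is not given in the sources used here.

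**Figure D2:**
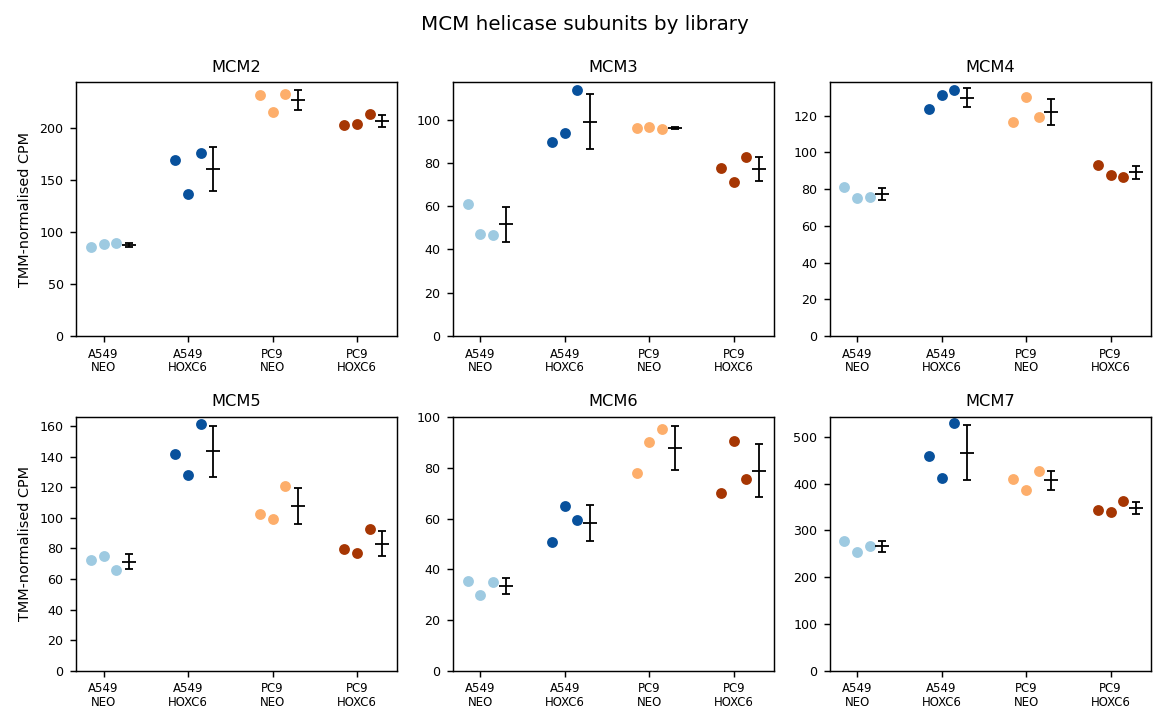
TMM-normalised CPM of MCM2 to MCM7 in each of the 12 libraries (points, by group; bars, mean and SD of 3). In all 6 panels the A549-HOXC6 points lie above the A549-NEO points, and the PC9-HOXC6 points lie below the PC9-NEO points except in MCM6, where they overlap.

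Genes that turn the loaded helicase on split by complex. The GINS subunits, which join CDC45 and the MCM ring at the fork, were higher in A549-HOXC6 for all 3 listed. GINS1 measured 23.2, 18.9 and 20.8 CPM in A549-NEO and 32.7, 34.2 and 32.6 CPM in A549-HOXC6. In PC9 GINS1 was at 25.9, 26.6 and 26.7 CPM in PC9-NEO and 19.7, 17.7 and 21.0 CPM in PC9-HOXC6. GINS1 was higher in every A549-HOXC6 library and lower in every PC9-HOXC6 library than in the controls, with a log2 fold change of 0.61 ± 0.19, adjusted p = 0.0121 in A549 and -0.41 ± 0.20, adjusted p = 0.122 in PC9. Without A549-NEO replicate 2 the GINS1 call in A549 was lost, at 0.54 with adjusted p = 0.0578 by edgeR. GINS4 measured 22.5, 21.3 and 31.0 CPM in A549-NEO and 54.9, 50.4 and 47.0 CPM in A549-HOXC6. Its PC9 levels were 25.9, 27.1 and 23.3 CPM in PC9-NEO and 26.0, 22.8 and 27.7 CPM in PC9-HOXC6. The A549 groups of GINS4 were apart and the PC9 groups overlapped, with a log2 fold change of 0.99 ± 0.18, adjusted p = 6.41e-05 in A549 and 0.035 ± 0.19, adjusted p = 0.915 in PC9. GINS4 shares 1276 bases of exon with transcripts on the opposite strand. GINS2 rose in A549 as well, at 0.71 ± 0.23, adjusted p = 0.0169, and its PC9 value was -0.11 ± 0.26, adjusted p = 0.79. The A549 call of GINS2 was lost by DESeq2, with the GC and length correction and the replicate block together, and without A549-NEO replicate 1 or A549-HOXC6 replicate 1. DBF4, the regulatory subunit of CDC7 kinase, went the other way in A549, with 22.9, 22.9 and 22.8 CPM in A549-NEO and 11.6, 12.8 and 12.3 CPM in A549-HOXC6. DBF4 fell in A549 without overlap (log2 fold change -0.95 ± 0.23, adjusted p = 0.00178) and its PC9 value was -0.43 ± 0.19, adjusted p = 0.102. The kinase subunit CDC7 was called in neither line, at -0.48 in A549 and -0.47 in PC9. MCM10 and CDC45, a scaffold and a helicase cofactor, were also called in neither line, although every PC9-HOXC6 library of MCM10, CDC45 and CDC7 lay below the PC9-NEO libraries.

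Among the DNA polymerases, the delta subunits POLD1 and POLD2 rose in A549 and the alpha catalytic subunit fell in PC9. POLD1, the catalytic subunit of polymerase delta, which extends the lagging strand, measured 128, 126 and 136 CPM in A549-NEO and 186, 189.7 and 238 CPM in A549-HOXC6. In PC9 POLD1 was at 87.9, 131 and 129.9 CPM in PC9-NEO and 121, 118 and 108 CPM in PC9-HOXC6. The POLD1 groups were apart in A549 and overlapped in PC9, with log2 fold changes of 0.61 ± 0.10, adjusted p = 3.95e-05 and -0.024 ± 0.12, adjusted p = 0.908. Exons of POLD1 share 426 bases with another gene on the same strand. POLD2, an accessory subunit of the same enzyme, measured 165, 159 and 173 CPM in A549-NEO and 232, 252 and 297 CPM in A549-HOXC6. PC9 libraries held POLD2 at 198, 182 and 209.9 CPM in PC9-NEO and 178, 174 and 191 CPM in PC9-HOXC6. It too was apart in A549 and overlapped in PC9, with log2 fold changes of 0.60 ± 0.10, adjusted p = 2.21e-05 and -0.11 ± 0.08, adjusted p = 0.34. POLA1, the catalytic subunit of polymerase alpha, which starts each new strand with primase, showed the other pattern. Its A549 levels were 15.9, 21.7 and 27.1 CPM in A549-NEO and 22.9, 32.5 and 13.9 CPM in A549-HOXC6, and its PC9 levels were 42.6, 38.7 and 27.9 CPM in PC9-NEO and 12.04, 17.7 and 22.5 CPM in PC9-HOXC6. The A549 groups of POLA1 overlapped widely, and the PC9-HOXC6 libraries were all below the controls. The log2 fold change of POLA1 was 0.0088 ± 0.26, adjusted p = 0.982 in A549 and -0.999 ± 0.22, adjusted p = 0.000775 in PC9. The other 5 genes of this role (POLA2, PRIM2, the delta subunit POLD3, POLE2 and POLE3) were called in neither line, and PRIM2 and POLA2 share 1476 and 2012 bases of exon with genes on the same strand.

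The sliding clamp and its loader did not move as 1 unit. PCNA, the clamp that tethers polymerases to DNA, measured 208, 217 and 205 CPM in A549-NEO and 236, 231 and 224 CPM in A549-HOXC6. In PC9 it measured 268, 290.0 and 269 CPM in PC9-NEO and 175, 200.3 and 182 CPM in PC9-HOXC6. The PCNA groups were apart in both lines, by a small margin upward in A549 and by a wide margin downward in PC9. For PCNA the log2 fold change was 0.09 ± 0.09, adjusted p = 0.457 in A549 and -0.58 ± 0.08, adjusted p = 1.97e-06 in PC9. RFC1, the large subunit of the clamp loader (GRCh37 chr4:39289076-39367995, minus strand), measured 40.9, 48.1 and 50.2 CPM in A549-NEO and 30.9, 35.9 and 24.0 CPM in A549-HOXC6. RFC1 in PC9 was at 108, 115 and 119 CPM in PC9-NEO and 66.0, 74.4 and 74.6 CPM in PC9-HOXC6. It was lower in every HOXC6 library of both lines, with a log2 fold change of -0.68 ± 0.18, adjusted p = 0.00308 in A549 and -0.67 ± 0.11, adjusted p = 1.72e-05 in PC9. The small loader subunits differed from RFC1 and from each other. RFC2 and RFC5 rose in A549, with log2 fold changes of 0.66 ± 0.18, adjusted p = 0.00404, and of 0.35 ± 0.13, adjusted p = 0.0291. The RFC2 call was lost with the GC and length correction, and the RFC5 call was lost by library size only, by DESeq2 and without A549-NEO replicate 1 or 3 or A549-HOXC6 replicate 1. RFC3 was called lower in PC9 (log2 fold change -0.66 ± 0.22, adjusted p = 0.026), and RFC4 was called in neither line. RFC3 was no longer called by DESeq2, with the GC and length correction, or without any 1 of PC9-NEO replicates 2 and 3 and PC9-HOXC6 replicates 1 and 3.

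LIG1, the ligase that seals Okazaki fragments, measured 90.4, 96.7 and 113 CPM in A549-NEO and 117, 126 and 127 CPM in A549-HOXC6. In PC9 LIG1 was at 85.2, 77.9 and 99.0 CPM in PC9-NEO and 86.2, 82.5 and 68.2 CPM in PC9-HOXC6. The A549 groups were apart and the PC9 groups overlapped, but neither comparison passed the test (log2 fold change 0.25 ± 0.11, adjusted p = 0.0774 in A549 and -0.17 ± 0.12, adjusted p = 0.309 in PC9). The single-strand binding protein RPA, which coats unwound DNA, had 1 of 3 subunits called. RPA1 was higher in PC9-HOXC6 (log2 fold change 0.24 ± 0.09, adjusted p = 0.037), with a value of 0.22 ± 0.10, adjusted p = 0.0631 in A549. That call was lost by library size only, by DESeq2, with the GC and length correction, with 12 libraries in one model and without any 1 of the PC9-NEO replicates or PC9-HOXC6 replicate 2 or 3.

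Of the genes for nucleotide supply, TK1 had the largest rise of the 51 genes in A549. TK1, the salvage kinase that phosphorylates thymidine (GRCh37 chr17:76170172-76183314, minus strand), measured 86.9, 81.0 and 78.4 CPM in A549-NEO and 165, 157 and 225 CPM in A549-HOXC6. Its PC9 levels were 184, 186 and 199 CPM in PC9-NEO and 172, 149.5 and 191 CPM in PC9-HOXC6. The A549 groups were apart, with replicate 3 the highest of the HOXC6 libraries, and the PC9 groups overlapped. TK1 gave a log2 fold change of 1.11 ± 0.12, adjusted p = 3.55e-08 in A549 and -0.13 ± 0.09, adjusted p = 0.301 in PC9. DUT, which removes dUTP, was called higher in A549, with a log2 fold change of 0.37 ± 0.15, adjusted p = 0.0482. The DUT call was lost by library size only, with a minimum of 10 counts, by DESeq2 and without replicate 2 or 3 of either A549 group. RRM1, the large subunit of ribonucleotide reductase, was lower in PC9 (log2 fold change -0.52 ± 0.11, adjusted p = 0.000849), while its A549 value was -0.18 ± 0.13, adjusted p = 0.276.

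TOP2A had the smallest adjusted p of the set in both lines. TOP2A, the topoisomerase that untangles daughter chromosomes and peaks in G2 and mitosis rather than in S phase (GRCh37 chr17:38544777-38574148, minus strand), measured 393, 430.0 and 414 CPM in A549-NEO and 211, 208 and 155 CPM in A549-HOXC6. In PC9 it measured 166, 194 and 154 CPM in PC9-NEO and 83.3, 87.6 and 76.1 CPM in PC9-HOXC6. No HOXC6 library reached the level of any NEO library of its line, and A549-HOXC6 replicate 3 was the lowest of its group. The log2 fold change of TOP2A was -1.15 ± 0.10, adjusted p = 1.32e-09 in A549 and -1.07 ± 0.10, adjusted p = 5.29e-09 in PC9. The chromatin assembly factor, which deposits histones behind the fork, moved with the MCM subunits instead. Its large subunit CHAF1A measured 35.3, 32.1 and 36.1 CPM in A549-NEO and 53.0, 57.2 and 68.9 CPM in A549-HOXC6. CHAF1A in PC9 was at 68.5, 73.4 and 69.4 CPM in PC9-NEO and 48.6, 49.3 and 52.7 CPM in PC9-HOXC6. The groups were apart in both lines in opposite directions, with log2 fold changes of 0.74 ± 0.15, adjusted p = 0.00039 in A549 and -0.48 ± 0.13, adjusted p = 0.00482 in PC9. CHAF1B, its partner subunit, measured 24.2, 18.9 and 9.81 CPM in A549-NEO and 32.3, 26.5 and 33.1 CPM in A549-HOXC6. PC9 levels of CHAF1B were 20.5, 26.1 and 23.7 CPM in PC9-NEO and 14.9, 14.7 and 14.9 CPM in PC9-HOXC6. A549-NEO replicate 3 was low among its group, and the groups still did not overlap in either line. Without that library the A549 value was 0.48 and was no longer called, and the PC9 call was lost without any 1 of PC9-NEO replicates 2 and 3 and PC9-HOXC6 replicates 1 and 3 (adjusted p 0.064 to 0.102 by edgeR) and by DESeq2 (0.093). The CHAF1B log2 fold change was 0.76 ± 0.24, adjusted p = 0.0123 in A549 and -0.66 ± 0.22, adjusted p = 0.0261 in PC9.

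The fork protection genes were each called in 1 line or in none. TIMELESS, which stabilises paused forks, measured 72.0, 67.0 and 56.9 CPM in A549-NEO and 114, 109 and 119 CPM in A549-HOXC6. In PC9 TIMELESS was at 59.9, 56.3 and 75.8 CPM in PC9-NEO and 65.0, 51.5 and 53.3 CPM in PC9-HOXC6. It was higher in every A549-HOXC6 library, while the PC9 groups overlapped, with log2 fold changes of 0.76 ± 0.12, adjusted p = 1.47e-05 and -0.18 ± 0.14, adjusted p = 0.353. CLSPN, the adaptor that passes the checkpoint signal to CHEK1, was expressed at a low level, at 7.96, 4.41 and 5.88 CPM in A549-NEO and 4.72, 6.83 and 9.62 CPM in A549-HOXC6. Its PC9 levels were 12.4, 9.05 and 16.5 CPM in PC9-NEO and 4.33, 6.63 and 5.18 CPM in PC9-HOXC6. The A549 groups of CLSPN overlapped, and the PC9-HOXC6 libraries lay below the PC9-NEO libraries. The log2 fold change of CLSPN was 0.11 ± 0.39, adjusted p = 0.853 in A549 and -1.28 ± 0.34, adjusted p = 0.00522 in PC9, and without PC9-NEO replicate 3 it was -1.02 in PC9 (adjusted p = 0.0629 by edgeR). The PC9-HOXC6 libraries held 9, 9 and 17 CLSPN counts against 23, 18 and 39 in PC9-NEO. CLSPN thus passed the filter on low counts in PC9 through its NEO libraries, where it was high. With a minimum of 10 counts in every library CLSPN was not tested in either line. TIPIN, the partner of TIMELESS, was called in neither line and had 2 to 24 counts per library.

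The regulators of S-phase entry held the second largest rise in A549, that of E2F1. They also held the deepest fitted fall in PC9, that of NPAT, whose PC9-HOXC6 counts were near the floor of 3. E2F1, an activator of the replication genes (GRCh37 chr20:32263283-32274191, minus strand), measured 34.6, 28.5 and 31.8 CPM in A549-NEO and 66.5, 60.7 and 79.1 CPM in A549-HOXC6. In PC9 E2F1 was at 80.4, 77.4 and 60.1 CPM in PC9-NEO and 58.3, 50.8 and 58.8 CPM in PC9-HOXC6. The groups were apart in both lines, upward in A549 and downward in PC9. The log2 fold change of E2F1 was 1.08 ± 0.15, adjusted p = 2.86e-06 in A549 and -0.35 ± 0.13, adjusted p = 0.0503 in PC9, which missed the threshold. E2F2, a second activator of the family, measured 7.27, 4.81 and 9.02 CPM in A549-NEO and 17.8, 5.98 and 16.6 CPM in A549-HOXC6. The PC9 values of E2F2 were 15.6, 12.1 and 15.7 CPM in PC9-NEO and 11.6, 10.3 and 12.48 CPM in PC9-HOXC6. In A549 replicates 1 and 3 of the HOXC6 group were high and replicate 2, with 7 counts, was within the NEO range. For E2F2 the log2 fold change was 0.99 ± 0.34, adjusted p = 0.0214 in A549 and -0.31 ± 0.27, adjusted p = 0.419 in PC9. The A549 call of E2F2 was lost without A549-NEO replicate 1, A549-NEO replicate 2 or A549-HOXC6 replicate 1 (adjusted p 0.0561 to 0.171 by edgeR) and by DESeq2 (0.0718).

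NPAT, the coactivator of histone genes at the start of S phase (GRCh37 chr11:108027942-108093365, minus strand), was low throughout, at 6.58, 6.82 and 9.02 CPM in A549-NEO and 3.27, 2.56 and 4.27 CPM in A549-HOXC6. Its PC9 levels were 9.17, 7.04 and 10.6 CPM in PC9-NEO and 1.45, 0.736 and 1.22 CPM in PC9-HOXC6. Every HOXC6 library was below every NEO library in both lines. The PC9-HOXC6 libraries held 3, 1 and 4 NPAT counts against 17, 14 and 25 in PC9-NEO. The A549-HOXC6 libraries held 9, 3 and 8 against 19, 17 and 23 in A549-NEO. NPAT thus passed the filter on low counts in each line through its NEO libraries, where it was high. With a minimum of 10 counts in every library it was not tested. The ratio of summed counts per total count was 0.125 in PC9 (exact 95% interval 0.0514 to 0.263, counting error only) and 0.436 in A549 (0.249 to 0.735). The fitted log2 fold change of NPAT was -1.15 ± 0.41, adjusted p = 0.0282 in A549 and -2.86 ± 0.49, adjusted p = 5.13e-05 in PC9. The A549 call of NPAT was lost without A549-NEO replicate 2 or 3 or A549-HOXC6 replicate 1 or 2 (adjusted p 0.0538 to 0.117 by edgeR) and by DESeq2 (0.0915). Of the 37 replication-dependent histone genes listed, 7 were in the table. They summed to 2.08 to 8.82 CPM in A549-NEO, 5.13 to 9.62 in A549-HOXC6, 17.3 to 28.6 in PC9-NEO and 26.5 to 33.9 in PC9-HOXC6. Most of the PC9 sum was H2BC5, with group means of 19.0 CPM in PC9-NEO and 27.4 CPM in PC9-HOXC6. In each group 4 to 6 of the 7 had at most 3 counts in every library. The libraries were of polyadenylated RNA, and histone output was not tested. E2F3 and cyclin E1 (CCNE1), the cyclin that drives CDK2 into S phase, were called in neither line, with CCNE1 at 0.53 ± 0.25, adjusted p = 0.117 in PC9, where its HOXC6 libraries lay above the controls.

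**Figure D3:**
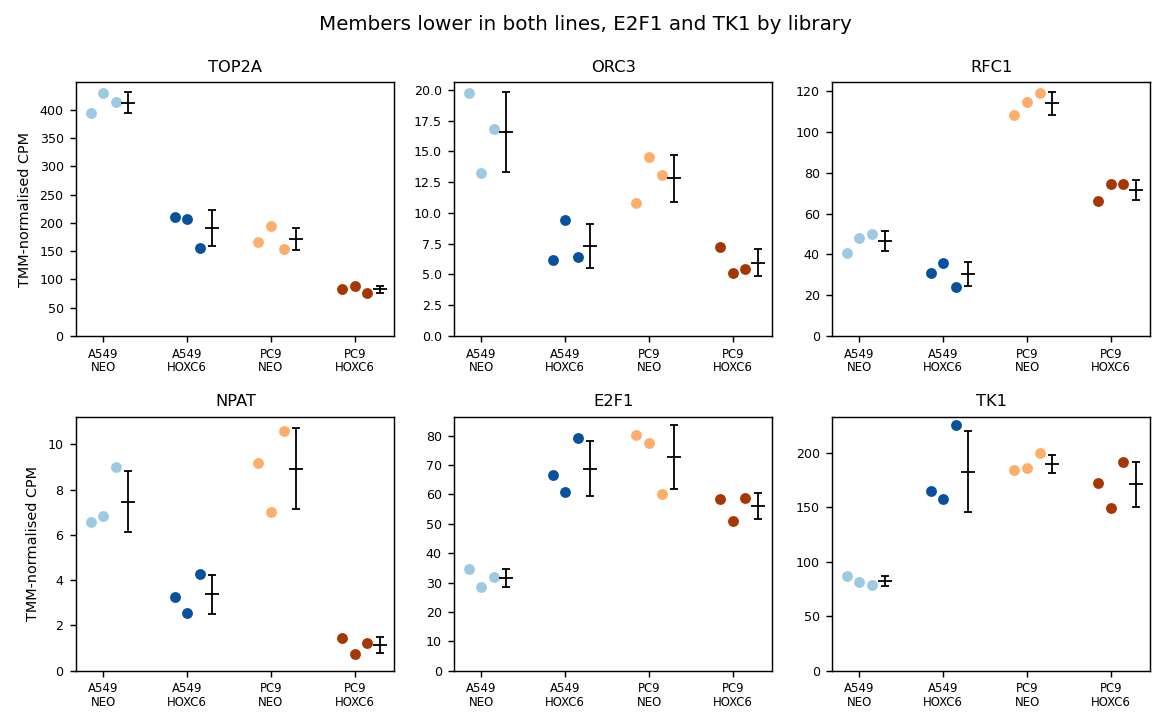
TMM-normalised CPM in each of the 12 libraries (points, by group; bars, mean and SD of 3) for the 4 genes lower in both lines (TOP2A, ORC3, RFC1 and NPAT) and for E2F1 and TK1. The first 4 panels show the HOXC6 points under the NEO points in both lines, and the last 2 show HOXC6 points above the NEO points in A549 and, in PC9, below them (E2F1) or overlapping (TK1).

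The promoters of the 5 genes past both thresholds in A549 are shown because genes that fell (TOP2A, ORC3 and NPAT) and genes that rose (E2F1 and TK1) can be compared base by base. They come from RefSeq (GRCh38.p14), 5′ to 3′ on the gene's strand, and cover the 250 bases before the annotated start. Capitals mark matches on either strand to an E2F word (TTTCCCGC, TTTCGCGC, TTTGCCGC or TTTGGCGC), to CCAAT, which NF-Y binds, or to the CHR word of late cell cycle genes (TTTGAA or TTTAAA). The positions are chr17:40417897-40418146 (minus strand) for TOP2A, chr6:87589885-87590134 (plus) for ORC3, chr11:108222639-108222888 (minus) for NPAT, chr20:33686386-33686635 (minus) for E2F1 and chr17:78187205-78187454 (minus) for TK1.
TOP2A: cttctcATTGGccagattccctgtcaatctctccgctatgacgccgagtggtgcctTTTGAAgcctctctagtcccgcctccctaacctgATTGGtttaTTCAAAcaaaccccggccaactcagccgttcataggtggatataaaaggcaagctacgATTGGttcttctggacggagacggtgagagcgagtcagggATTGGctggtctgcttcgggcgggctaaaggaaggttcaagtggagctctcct
ORC3: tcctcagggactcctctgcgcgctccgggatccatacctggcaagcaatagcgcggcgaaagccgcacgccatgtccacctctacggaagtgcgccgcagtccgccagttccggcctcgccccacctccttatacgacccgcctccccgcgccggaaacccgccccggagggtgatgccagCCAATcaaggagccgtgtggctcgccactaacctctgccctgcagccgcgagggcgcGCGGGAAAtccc
NPAT: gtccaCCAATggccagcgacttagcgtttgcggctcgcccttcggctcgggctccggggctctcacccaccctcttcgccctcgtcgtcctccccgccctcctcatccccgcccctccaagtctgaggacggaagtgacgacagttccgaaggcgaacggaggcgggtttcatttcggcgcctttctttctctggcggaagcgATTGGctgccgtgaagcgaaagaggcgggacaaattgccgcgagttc
E2F1: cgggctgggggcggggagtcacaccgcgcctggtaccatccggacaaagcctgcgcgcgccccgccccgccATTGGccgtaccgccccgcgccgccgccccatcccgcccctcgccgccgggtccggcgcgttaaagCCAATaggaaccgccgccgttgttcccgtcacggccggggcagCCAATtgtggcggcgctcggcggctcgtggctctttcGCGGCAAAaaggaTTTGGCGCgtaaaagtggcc
TK1: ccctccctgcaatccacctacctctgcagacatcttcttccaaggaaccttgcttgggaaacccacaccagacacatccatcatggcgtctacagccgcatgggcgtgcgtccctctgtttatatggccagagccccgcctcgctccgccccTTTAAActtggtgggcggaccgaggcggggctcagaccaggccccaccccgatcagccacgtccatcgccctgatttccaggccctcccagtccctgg

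TOP2A had 4 CCAAT matches and 2 CHR matches and no E2F word. E2F1 had 2 E2F words close to its start and 3 CCAAT matches, and ORC3 had 1 of each. NPAT had 2 CCAAT matches, and TK1 had 1 TTTAAA, which reads the same on both strands. RefSeq promoters of 300 bases (250 before to 50 after the start) matched 45 of the 51 genes by symbol. An E2F word lay in 19 of these 45 (42.2%), against 3.33% of 27305 promoters in all, and CCAAT lay in 27 (60%), against 35.7%. A CHR word lay in 6 (13.3%), against 24.3%. By call, an E2F word was found in 8 of 17 promoters of genes higher in A549-HOXC6, 1 of 5 of genes lower there, 7 of 13 of genes lower in PC9-HOXC6 and 10 of 16 of genes whose HOXC6 effect was greater in A549 than in PC9. MCM2, MCM3, MCM6 and MCM7, the MCM subunits that matched the promoter table, had 2, 2, 4 and 2 E2F matches. The 51 genes were chosen partly for E2F control, and the 27305 promoters were not matched to them in gene type or GC content. The shares therefore describe this list only. A match describes the letters in this window and not a bound site.

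The difference between the lines was then tested directly, as the HOXC6 effect in A549 minus that in PC9 over 12 libraries. It was greater in A549 for 19 of the 51 genes (37.3%) and smaller for none, against 10.9% and 8.44% of 9229 genes tested. The median difference was 0.51 for the 51 genes and 0.047 for all genes, on the log2 scale. At an unadjusted p under 0.05, 1 gene (CDT1) had the smaller effect in A549. DESeq2 called 16 of the 51 genes greater and 0 smaller, against 697 and 740 of 9229 genes (7.55% and 8.02%).

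All 6 MCM subunits were among the 19, with differences from 0.96 (MCM6, adjusted p = 0.000418) to 1.38 (MCM5, adjusted p = 4.37e-08). The greatest differences belonged to E2F1 at 1.48 ± 0.21, adjusted p = 9.67e-07, and CHAF1B at 1.46 ± 0.33, adjusted p = 0.00122. TK1 differed by 1.29 ± 0.16, adjusted p = 7.71e-08, and CHAF1A by 1.26 ± 0.20, adjusted p = 7.84e-06. PCNA and POLA1, which were called in PC9 and not in A549, differed by 0.71 ± 0.12, adjusted p = 3.77e-05 and by 1.05 ± 0.35, adjusted p = 0.0277. NPAT had the largest estimate of the set, 1.76 ± 0.70, adjusted p = 0.0691, and did not pass the test, nor did CLSPN at 1.43 ± 0.54, adjusted p = 0.0538. For the other genes lower in both lines the difference was small against its error, at -0.041 ± 0.15 for TOP2A, -0.15 ± 0.45 for ORC3 and 0.037 ± 0.20 for RFC1. None of the 6 origin recognition and licensing genes was called by edgeR's test of the difference. The calls for LIG1, POLA1 and E2F2 were lost when 1 library was left out, in 7, 6 and 3 of 12 cases, with adjusted p up to 0.194, 0.0998 and 0.11, and by DESeq2 (adjusted p = 0.134, 0.0541 and 0.0602). The libraries concerned were A549-NEO 1 and 2, A549-HOXC6 2 and 3, PC9-NEO 1 and 3 and PC9-HOXC6 3 for LIG1, A549-NEO 1, A549-HOXC6 1 and 2, PC9-NEO 1 and 2 and PC9-HOXC6 1 for POLA1, and A549-NEO 2, A549-HOXC6 1 and PC9-NEO 3 for E2F2.

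The control lines themselves differed, which sets the levels from which these changes started. In A549-NEO most replication genes were at lower levels than in PC9-NEO, with a median log2 fold change of -0.48 (all genes 0.015). At an adjusted p under 0.05 of any size 3 of 51 were higher and 29 of 51 lower. Of all 9076 genes tested 3353 were higher and 3243 lower (36.9% and 35.7%). With a log2 fold change beyond 1, 2 of 51 were higher in A549-NEO (3.92%, against 19.6% of 9076 genes) and 10 were lower (19.6%, against 16.4%). CDT1 and TOP2A were the 2 higher genes, at 1.35 ± 0.08, adjusted p = 1.27e-17 and at 1.31 ± 0.08, adjusted p = 2.1e-17. The 5 with the greatest deficit in A549-NEO were MCM6 (-1.36 ± 0.13, adjusted p = 1.11e-11), MCM2 (-1.33 ± 0.09, adjusted p = 2.76e-16), CDC45 (-1.28 ± 0.24, adjusted p = 1.51e-05), RFC1 (-1.27 ± 0.11, adjusted p = 2.16e-12) and TK1 (-1.17 ± 0.09, adjusted p = 4.37e-14). All 6 MCM subunits were lower in A549-NEO, with log2 fold changes of -1.36 to -0.56. The members' counts made up 0.315 to 0.320% of all counts in the A549-NEO libraries and 0.363 to 0.380% in A549-HOXC6, 0.379 to 0.396% in PC9-NEO and 0.307 to 0.317% in PC9-HOXC6. The share thus rose in every A549-HOXC6 library and fell in every PC9-HOXC6 library relative to the controls, and the order of the lines was the reverse with and without HOXC6.

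Levels between genes were compared per length, as mean CPM per kilobase of merged exons. In A549-NEO the highest were PCNA at 149.7 ± 4.71, CDT1 at 135 ± 9.71, TOP2A at 64.7 ± 2.87, MCM7 at 53.7 ± 2.4 and TK1 at 44.5 ± 2.36 CPM per kilobase (SD, n = 3). The lowest were PRIM2 at 1.44 ± 0.912, POLA1 at 1.39 ± 0.358, E2F2 at 1.29 ± 0.387, NPAT at 0.993 ± 0.179 and CLSPN at 0.635 ± 0.186 CPM per kilobase. Neighbouring genes among the 5 highest did not overlap in their library ranges, nor did NPAT and CLSPN, while PRIM2, POLA1, E2F2 and NPAT overlapped with their neighbours. PCNA was also the highest in A549-HOXC6 (164 ± 4.39), PC9-NEO (196 ± 8.91) and PC9-HOXC6 (132 ± 9.27 CPM per kilobase). TK1 stood at 99.0 ± 20.2 CPM per kilobase in A549-HOXC6, close to 103 ± 4.55 in PC9-NEO, where the A549 control had been lower. With the length of the canonical transcript in place of merged exons, POLD2 replaced TK1 among the 5 highest, and CDC7 and MCM10 replaced PRIM2 and POLA1 among the 5 lowest.

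**Figure D4:**
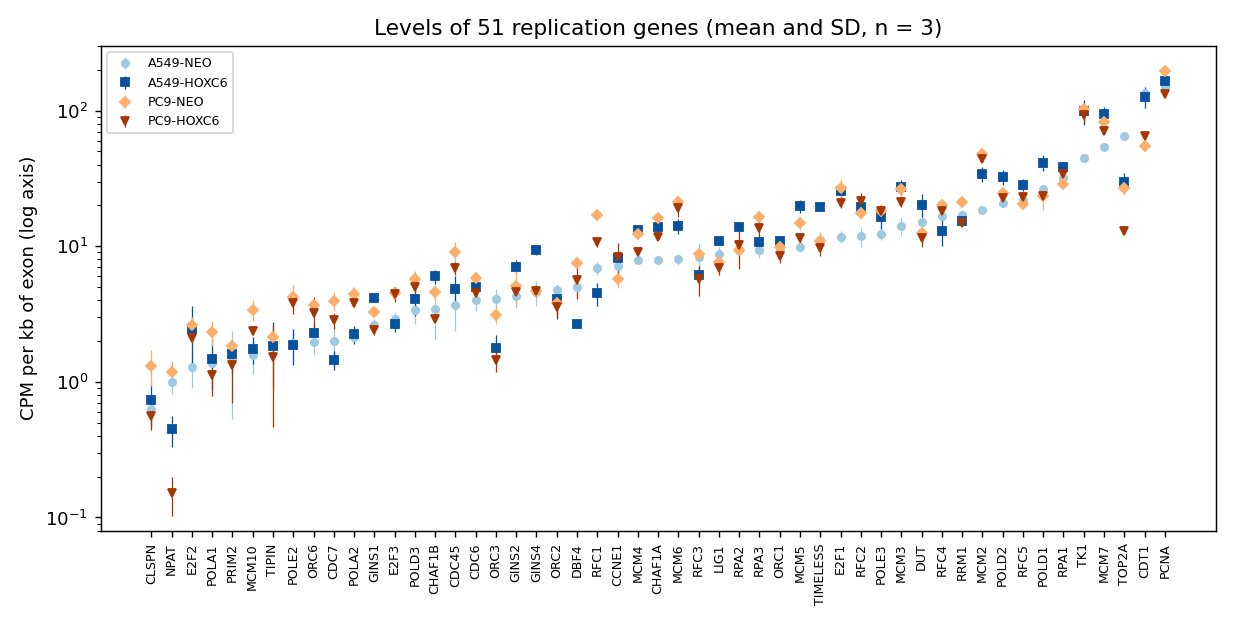
Mean CPM per kilobase of merged exons (log axis, bar SD of 3) of the 51 replication genes, ordered by their level in A549-NEO, in A549-NEO, A549-HOXC6, PC9-NEO and PC9-HOXC6. PCNA is the highest gene in all 4 groups and CLSPN and NPAT are among the lowest.

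A further list of 67 replication genes outside the 51 (other subunits, checkpoint, chromatin and cell cycle control genes) had 46 members in the table. In A549-HOXC6, 9 of 46 rose (19.6%) and 9 fell (19.6%), near the 18.9% and 20.7% of all genes. Those that rose were MYBL2, RNASEH2A, ASF1B, POLE4, DNMT1, TONSL, RECQL4, ATRIP and FEN1. Those that fell were TOP2B, RIF1, RBL2, CDKN1A, E2F5, DNA2, RB1, TOPBP1 and ORC5. FEN1, which trims Okazaki fragment flaps, rose, with a log2 fold change of 0.84 ± 0.19, adjusted p = 0.000698. DNMT1, the maintenance DNA methyltransferase, rose too, at 0.44 ± 0.11, adjusted p = 0.00278. RIF1, which sets replication timing, fell, with a log2 fold change of -1.32 ± 0.23, adjusted p = 4.09e-05. In PC9-HOXC6 1 of 46 rose (2.17%, against 13.3% of all genes) and 13 fell (28.3%, against 14.2%). RIF1 had the largest fall there, at -2.20 ± 0.24, adjusted p = 3.17e-08. TOP2B, a relative of TOP2A that non-dividing cells also express, fell in both lines, with -0.95 ± 0.13, adjusted p = 1.05e-06 in A549 and -1.10 ± 0.13, adjusted p = 1.22e-07 in PC9. FEN1 and DNMT1 were lower in PC9, at -0.50 ± 0.14, adjusted p = 0.00699 and -0.28 ± 0.07, adjusted p = 0.00491. With the log2 criterion, ATRIP (1.03 ± 0.31, adjusted p = 0.00887) was the 1 gene higher in A549 (2.17%, against 1.7% of all genes). RIF1 was the 1 gene lower there (2.17%, against 5.51%). TOP2B, RIF1, RNASEH2B (-1.03 ± 0.28, adjusted p = 0.00651) and MMS22L (-1.54 ± 0.34, adjusted p = 0.000831) were lower in PC9 (8.7%, against 3.56%), and 0 were higher (against 0.962%). Between the control lines, CDKN1A and CHEK1 were higher in A549-NEO by the log2 criterion (4.35%, against 19.6% of all genes) and 12 of 46 were lower (26.1%, against 16.4%).

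The test of the difference between lines called 11 of the 46 greater in A549 (23.9%, against 10.9% of all genes) and 1 smaller (2.17%, against 8.44%). The 1 smaller was CDKN1A, the p21 inhibitor of cyclin-dependent kinases, named here after its values were seen. Its group means were 790.3 CPM in A549-NEO and 418 CPM in A549-HOXC6, and 47.6 CPM in PC9-NEO and 71.7 CPM in PC9-HOXC6. CDKN1A fell in A549, at -0.97 ± 0.08, adjusted p = 4.63e-10, and rose in PC9, at 0.59 ± 0.13, adjusted p = 0.000779, with a difference of -1.52 ± 0.15, adjusted p = 4.31e-10.

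Base composition moved with the HOXC6 effect in both lines. Over all genes with an annotated GC content, Spearman's rho between the GC percent of the canonical transcript and the log2 fold change was 0.53 in A549 (n = 8698) and 0.53 in PC9 (n = 8349), and over the 51 genes it was 0.72 and 0.49. These are descriptions across genes of the same libraries, which are not independent. In the comparison of the control lines rho was -0.0087 over all genes and -0.076 over the 51. For the difference between lines it was 0.086 over all genes and 0.36 over the 51. The 19 genes with a greater effect in A549 had a median GC content of 55.8%, against 46.3% for the 51. Genes of the set with a GC content under 40% (n = 8) had a median log2 fold change of -0.72 in A549, against -0.59 for all genes of that band, and those at 55% or more (n = 11) had 0.77, against 0.22. In PC9 the same bands gave -0.57 against -0.43 and -0.17 against 0.16. The 5 genes lower in A549 had a median GC content of 38.9%, and the 20 higher had 52.2%.

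**Figure D5:**
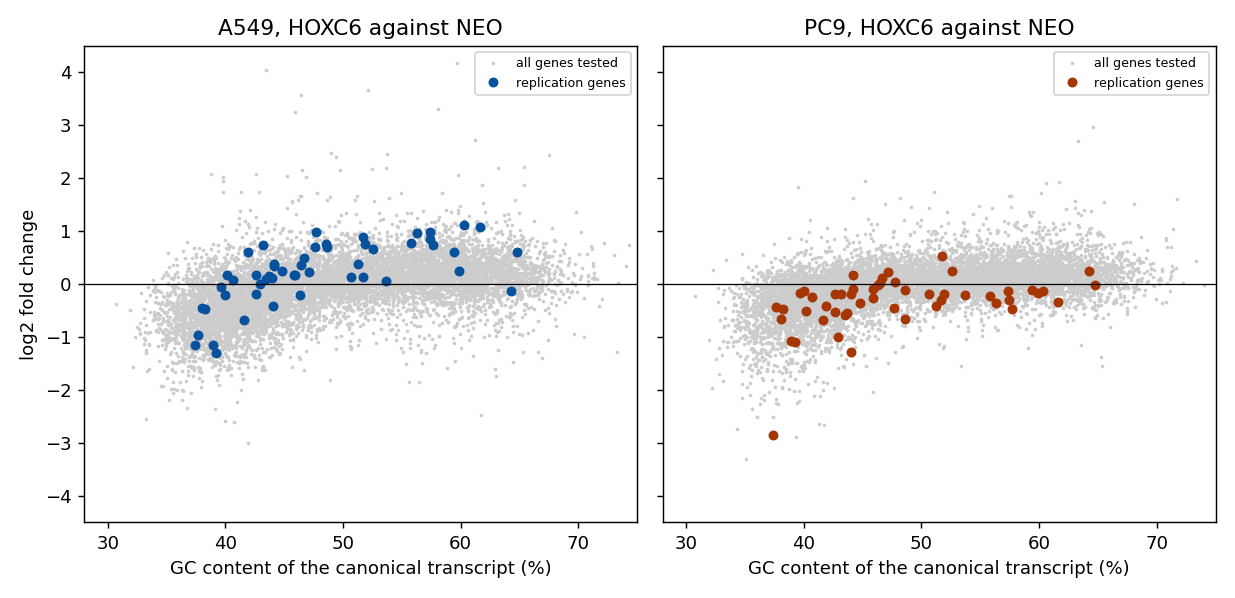
Log2 fold change (HOXC6 against NEO) against the GC content of the canonical transcript (%) for all genes tested (grey) and the 51 replication genes (coloured) in A549 and in PC9. All genes tilt upward with GC content in both panels (rho 0.53 and 0.53), and the replication genes' median lies above that of all genes in 4 of 5 GC bands in A549 and below it in all 5 in PC9.

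With a smooth trend on GC percent and on transcript length removed from every library, 21 of the 51 replication genes were higher and 3 lower in A549. Among all 8771 genes tested 1425 were higher and 1288 lower (16.2% and 14.7%). In PC9 0 of 51 were higher and 18 lower, against 912 and 795 of 8419 genes (10.8% and 9.44%). ORC3, CDT1 and TOP2A were the 3 lower in A549, while DBF4, RFC1 and NPAT were no longer called (adjusted p 0.188, 0.129 and 0.393 by edgeR). In PC9 MCM2, POLD2, LIG1, TK1 and E2F1 were gained as lower, and ORC3 and RFC3 were lost. TOP2A remained lower in both lines at a smaller size, -0.61, adjusted p = 1.73e-08 in A549 and -0.66, adjusted p = 1.45e-05 in PC9, and was the only gene of the 4 called lower in both lines to keep both calls. NPAT stood at -2.37, adjusted p = 0.000995, in PC9. The number of genes higher in A549 and lower in PC9 was 11 with this correction, 6 without it and 3 by DESeq2. The corrected difference between lines was called greater in A549 for 19 of 51 genes and smaller for CDT1, against 997 and 965 of 9229 genes (10.8% and 10.5%). Whether the GC trend arose in the cells or in the libraries was not tested.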

How the data were processed

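Polyadenylated RNA of 12 libraries (3 per group) was sequenced. Per the labels and methods, the authors aligned reads with HISAT2 (version 2.1.0) to GRCh37 and counted them per gene with HTSeq (0.9.1), and the deposited values are raw counts without normalization. The strand setting of the counting is not given in the sources used here. Of the table, 12584 genes were used and 1 incomplete line was left out. The 51 genes and the other lists were chosen with earlier results of these data known.

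Counts were tested with edgeR 4.0.16 (R 4.3.3: filterByExpr, TMM, quasi-likelihood F-test), each line alone for HOXC6 against NEO, the NEO groups against each other, and the interaction over 12 libraries, with Benjamini-Hochberg adjustment over all genes. Levels are TMM-scaled CPM over all 12 libraries. Library values were named for genes past an adjusted p of 0.05 with a log2 fold change beyond 1 in either line, called in the interaction, or called in the same direction in both lines, and other genes got library values where the text describes them. Gene positions and GC content came from GENCODE on GRCh37 and promoters from RefSeq. Alternatives were other scalings and filters, DESeq2 1.42.0, all libraries in one model, a replicate block, a GC and length correction (mgcv 1.9.3) and leaving out each library. The scripts were tested on simulated counts. Intervals and floors cover counting error only.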

Additional observations from a re-analysis of the deposited data

Results flagged for a closer look

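The HOXC6 effect differed between the lines for 19 of the 51 replication genes by the interaction term of edgeR's quasi-likelihood test, with Benjamini-Hochberg adjustment over all genes tested. Each value is the log2 fold change in A549 minus that in PC9, all 19 were positive, and 3 libraries stood behind each group mean. Among the helicase genes the difference was 1.38 (adjusted p = 4.37e-08) for MCM5, 1.23 (adjusted p = 1.86e-06) for MCM3, 1.20 (adjusted p = 1.1e-07) for MCM4, 1.03 (adjusted p = 2.17e-08) for MCM7, 1.02 (adjusted p = 5.08e-07) for MCM2 and 0.96 (adjusted p = 0.000418) for MCM6. The GINS subunits gave 1.07 (adjusted p = 0.0034) for GINS1 and 1.001 (adjusted p = 0.00415) for GINS4.

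The regulators of S-phase entry gave 1.48 (adjusted p = 9.67e-07) for E2F1 and 1.35 (adjusted p = 0.024) for E2F2. The chromatin assembly subunits gave 1.46 (adjusted p = 0.00122) for CHAF1B and 1.26 (adjusted p = 7.84e-06) for CHAF1A, and thymidine kinase TK1 gave 1.29 (adjusted p = 7.71e-08). Among the polymerases the difference was 1.05 (adjusted p = 0.0277) for POLA1, 0.76 (adjusted p = 5.71e-05) for POLD2 and 0.68 (adjusted p = 0.00256) for POLD1. The remaining genes were TIMELESS at 0.99 (adjusted p = 0.000136), PCNA at 0.71 (adjusted p = 3.77e-05) and LIG1 at 0.47 (adjusted p = 0.0444). Of the 19 genes, edgeR called 6 in opposite directions in the 2 lines and DESeq2 called 3 (MCM4, MCM7 and CHAF1A). The groups held 3 libraries each, too few for the test of single libraries that stand apart.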

How the results depend on the processing

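Depth limited the genes with few counts, such as NPAT, CLSPN, TIPIN and E2F2, and 3 libraries a group limited every test. The replicate numbers did not pair the libraries, since deviations of same-numbered libraries correlated between -0.0486 and 0.0448. With the replicate block 20 genes of the 51 were higher and 6 lower in A549, against 1675 and 1857 of 8771 genes. In PC9 2 were higher and 16 lower, against 1289 and 1307 of 8419. In the difference between lines 19 were greater and 1 smaller, against 1129 and 866 of 9229. DESeq2 called 16 of the 51 higher and 4 lower in A549, against 1346 and 1394 of 8771 genes. It called 0 higher and 11 lower in PC9, against 785 and 840 of 8419. For the difference it called 16 greater and 0 smaller, against 697 and 740 of 9229. The count of genes higher in A549 stayed between 16 and 24 under every alternative, that of genes lower in PC9 between 10 (without PC9-NEO replicate 3) and 18, and that of greater effects in A549 between 16 and 20. The shares of all genes called in the same directions ran from 13.9 to 21.8%, from 9.44 to 18.9% and from 7.55 to 13.6%.

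Counts of few genes moved most, and the cause was not tested. In A549, 3 genes were lower with the GC and length correction and 3 with that correction and the block, against 5. The shares of all genes lower were 14.7%, 14.3% and 20.7% in the same order. With a log2 fold change beyond 1, 0 genes were higher under both corrections and 5 with 12 libraries in one model, against 2, with 1 to 4 over single libraries left out (1 without A549-HOXC6 replicate 3). By that criterion 0 were lower in A549 under both corrections, against 3, and 2 were lower in PC9 under both and with a minimum of 10 counts, against 4. The genes higher in PC9 (2) became 0 by library size only, by DESeq2, with the GC and length correction and with 12 libraries, 1 with that correction and the block, and 0 to 2 over single libraries left out (0 without PC9-NEO replicate 1 or 3 or PC9-HOXC6 replicate 2 or 3, and 1 without PC9-NEO replicate 2). Under the alternatives 8.93 to 15.3% of all genes were higher in PC9. The 1 smaller effect in A549, against 0, was CDT1, with RLE size factors, the block, the GC correction and both together, and without A549-HOXC6 replicate 3 (0 to 1 over single libraries). Scaling by library size only moved the median log2 fold change of all genes from -0.0046 to -0.088 in PC9 and from 0.015 to -0.097 between the NEO groups.

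Among the 24 genes chosen for full statistics, values that missed the threshold changed sign in 6 cases. Over all 51 genes the GC correction turned the sign of 8 values in A549, 6 in PC9, 2 in the difference between lines and 2 between the NEO groups, none of them called with or without it. POLA1 in A549 was -0.034 by library size only and -0.0198 with a minimum of 10 counts, and -0.23 to 0.27 over single libraries left out. CLSPN in A549 ran from -0.21 to 0.41 over single libraries. GINS4 in PC9 was -0.047 by library size only, -0.024 with the GC correction, -0.027 with the block added, and -0.031 to 0.099 over single libraries. POLD1 in PC9 ran from -0.18 to 0.069. In the difference between lines, RFC1 was -0.012 with RLE size factors, -0.0111 by DESeq2 and -0.051 to 0.17 over single libraries, and TOP2A was 0.0600 with the GC correction, 0.042 with the block added and -0.14 to 0.093 over single libraries.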
